A study of Mus musculus with 24 samples.

Results

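Transcripts of 10 chaperone genes were followed in C2C12 muscle sheets that had been made to contract with light. The genes were taken by name from the HSP70, HSP90 and inducible chaperone families: Hspa1a, Hspa1b, Hspa8 and Hsph1 of the HSP70 and HSP110 families, Hsp90aa1 and Hsp90ab1 of the HSP90 family, the J-domain genes Dnajb1 and Dnaja1, and the mitochondrial chaperonin pair Hspd1 and Hspe1. All 10 were found among the 56941 genes measured, and all 10 were among the 13315 genes with enough counts for a test. C2C12 myoblasts, a line of mouse muscle precursors, fuse to form myotubes. These cells, labelled ChR2::tdTomato, carry channelrhodopsin-2, an ion channel that blue light opens. Every tissue, controls included, carried this genotype and was differentiated on a fibrin hydrogel, in medium with horse serum and IGF-1 per the labels, for 16 days in the study's methods. The 4 conditions were no stimulation (control) and 60 min of daily optical stimulation at 1 Hz, 4 Hz or 10 Hz, with 6 libraries each, or 24 in all. The study calls the 6 tissues of a condition biological replicates, but all came from 1 cell line, and a plate or day for each tissue is not given in the labels. The conditions could differ in light dose as well as in contraction, and these cannot be told apart in this design.

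Heat shock proteins bind unfolded proteins and return them to a folded state. HSP70 proteins clamp and release short unfolded stretches as they hydrolyse ATP; J-domain proteins deliver the client and start hydrolysis, exchange factors such as the HSP110 protein Hsph1 restart the cycle, and HSP90 dimers take over clients that need late folding steps. Heat, unfolded proteins, oxidants and strong muscle contraction are known to activate heat shock factor 1 (HSF1), which binds repeats of nGAAn (heat shock elements) in promoters, so that inducible members such as Hspa1a and Hspa1b can change over a wide range while Hspa8 and Hsp90ab1 are made constantly.

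The promoters are shown because members of the group varied together across libraries, as described further on. RefSeq promoter windows on GRCm38.p6 (250 bases before to 50 bases after a start site) were at hand for 7 of the 10 members, with 12 start sites, and their positions were found again by exact match in GRCm39. Hspa8, Hsp90aa1 and Hsp90ab1 had no entry. The 200 bases before the starts of Hspa1a (chr17:35191133-35191332, minus strand) and Hspa1b (chr17:35178215-35178414, minus strand) are the first 2 lines below, and the 200 bases before the main start of Dnajb1 (chr8:84334604-84334803, plus strand) the third. Capitals mark letters of a heat shock element.
Hspa1a: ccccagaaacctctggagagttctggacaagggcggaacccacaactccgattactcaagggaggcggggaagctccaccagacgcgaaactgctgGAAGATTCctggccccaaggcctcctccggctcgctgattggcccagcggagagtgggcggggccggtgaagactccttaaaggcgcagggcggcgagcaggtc
Hspa1b: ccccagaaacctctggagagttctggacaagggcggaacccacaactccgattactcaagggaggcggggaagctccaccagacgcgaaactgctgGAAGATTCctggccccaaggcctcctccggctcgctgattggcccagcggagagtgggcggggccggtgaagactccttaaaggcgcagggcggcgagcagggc
Dnajb1: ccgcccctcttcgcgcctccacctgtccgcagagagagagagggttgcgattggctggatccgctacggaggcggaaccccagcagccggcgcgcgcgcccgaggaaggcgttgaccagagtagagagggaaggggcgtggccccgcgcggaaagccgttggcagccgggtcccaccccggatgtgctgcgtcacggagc

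The Hspa1a and Hspa1b stretches differ at 1 of 200 positions. Each holds 1 element of 2 units (GAANNTTC or TTCNNGAA, each its own reverse complement), 104 to 97 bases before the start. In the Dnajb1 stretch these letters were not found. Hspd1 and Hspe1 are transcribed away from each other, and their main RefSeq starts lie 216 bases apart, so 1 stretch of overlapping elements lies in both windows. It is shown on the Hspd1 strand as chr1:55127212-55127241 beside the element of Hsph1 at chr5:149559816-149559845, also on the minus strand, because the rest of those windows runs into annotated exons.
Hspd1 and Hspe1: ggggccTTCCGGAAGGTTCTAGAAcggacc
Hsph1: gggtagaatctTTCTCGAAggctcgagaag

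Over the whole windows of 300 bases, 7 of the 12 member windows, of 6 members, held an element of 2 units, against 15.1% of 32851 RefSeq windows. An element of 3 units (GAA and TTC in turn, each 2 bases from the next, on either strand), which contains elements of 2 units, was found in 4 of the 12 windows, those of Hspd1, Hspe1 and Hsph1, against 0.603% of all windows. The 3-unit element of Hsph1 lies after its starts and is not in the stretch shown. The letters CCAAT, on either strand, were in 8 of the 12 windows and in 37.4% of all windows. Several of these windows overlap, and those of Hspa1a and Hspa1b share sequence. These matches are letters in a window and no measure of binding.

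Hspa1a and Hspa1b are near copies. Their genes stand 9951 bases apart on the minus strand of chromosome 17 (GRCm39, chr17:35188166-35191132 and chr17:35175412-35178214). Their coding sequences are 99.5% identical, and 82.4% of the 50-base stretches of the Hspa1a coding sequence occur unchanged in Hspa1b. How the estimated counts were split between them is therefore uncertain, and their sum is given beside them. Annotated genes on the opposite strand overlap 8 of the 10 members (all but Hspa1b and Dnajb1), and Hspd1 and Hspe1 overlap each other. Since the strand setting of the counting is not given in the sources used here, reads of such partners could not be told apart.

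Total estimated counts ran from 8052369 to 18159144 per library. The labels say that low-input samples were depleted of ribosomal RNA in place of poly(A) selection and do not say which. Scaling factors of library size (TMM) ran from 0.869 to 1.07, and 4 libraries stood below 0.95 (1 Hz libraries 4 and 6 and 4 Hz libraries 3 and 4). Results that change without them are given with both values. Genes of the mitochondrial genome took 3.97%, 4.87%, 8.90% and 1.505% of their counts, in that order. This share was 1.37% to 2.72% in the controls, 1.52% to 4.87% at 1 Hz, 0.545% to 8.90% at 4 Hz and 1.44% to 2.56% at 10 Hz. Its part in the results was not tested. Markers fitted the labelled tissue: all 8 myotube markers were tested, with a summed level of 8630 to 14760 CPM (counts scaled to a common library size), while each of 4 fat cell and 3 endothelial markers stayed under 1 CPM. Of the 8, Myog, a factor of early differentiation, was lower than in the controls at 1 Hz and 4 Hz (log2 fold changes -1.34 and -1.47, adjusted p = 1.23e-12 and 1.54e-13). On the TPM scale 3 of the 8 were called lower at 1 Hz and 2 at 4 Hz, and 0 higher at either. Of 4 cell cycle markers, Cdk1 was higher at 1 Hz and at 4 Hz, and Mki67 and Ccnb1 were lower at 4 Hz. On the TPM scale Ccnb1 at 4 Hz was the only one of these called, and Mki67 was too low to be tested. Of 4 leukocyte markers only Cd68 passed the filter, and the list summed to 39.4 to 72.9 CPM. Of the 3 markers of undifferentiated myoblasts, Myod1 and Pax7 were lower and Myf5 was higher than in the controls at 1 Hz and at 4 Hz, and the 3 genes summed to between 205.6 and 254.1 CPM in the controls, 106.8 and 121.8 at 1 Hz, 79.97 and 109.0 at 4 Hz, and 193.7 and 229.0 at 10 Hz.

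Per length, the constant members were the most abundant. In the controls the mean TPM (the same scaling after division by transcript length) was 2370 ± 379 (SD, n = 6) for Hspa8, the constant HSP70, and 2276 ± 184 for Hsp90ab1, the constant HSP90. Hspa8 exceeded Hsp90ab1 in 5 of 6 control libraries. Hsp90aa1, the inducible HSP90, followed at 1343 ± 320 TPM and was below Hsp90ab1 in all 6 control libraries. Hspa1b reached 890 ± 519 TPM, and below it Dnaja1 (495 ± 85.2), Hspd1 (477 ± 30.5), Hspe1 (388 ± 86.1), Hsph1 (344 ± 134), Hspa1a (289 ± 212) and Dnajb1 (252 ± 138) followed without clear steps: from Hspa1b down, no member stood above its next neighbour in all 6 control libraries. Together the 10 members took 0.784% to 1.60% of the counts of a control library, 0.638% to 1.34% at 1 Hz, 0.799% to 1.45% at 4 Hz and 0.768% to 1.56% at 10 Hz.

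**Figure D1:**
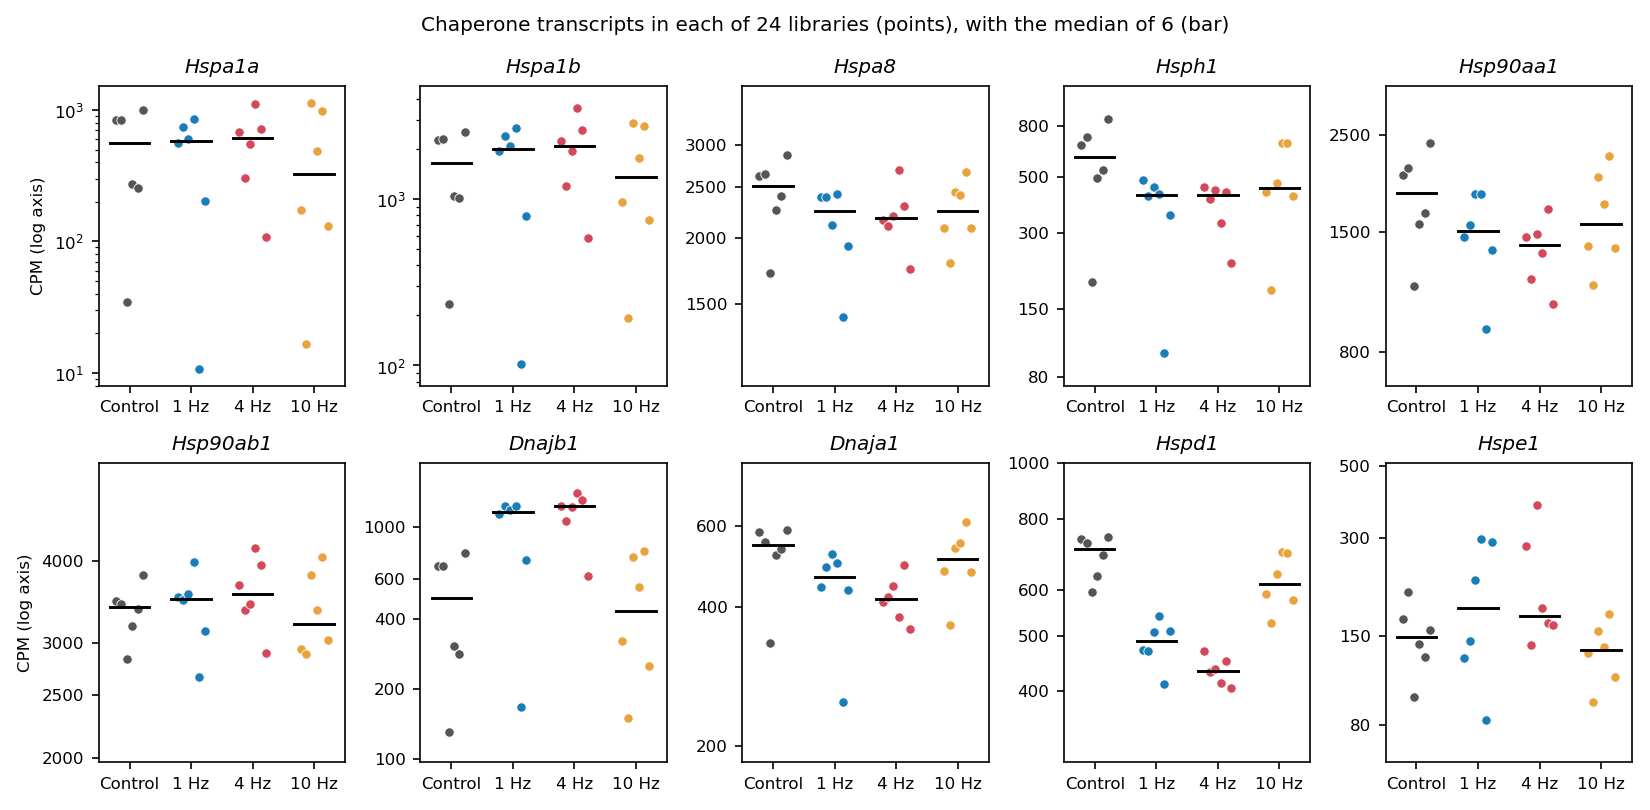
CPM of each of the 10 chaperone transcripts on a log axis (vertical, scaled separately for each gene) by condition (horizontal), with 1 point per library and a bar at the median of 6. Hspd1 was below every control in all 6 libraries at 1 Hz and at 4 Hz, Dnajb1 was above every control in 5 of 6 libraries at 4 Hz, and the highest Hspa1a level was at least 10.3 times the lowest within every condition.

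Few of the members were called by edgeR with stimulation. Genes were tested with edgeR's quasi-likelihood test over all 24 libraries and called at a Benjamini-Hochberg adjusted p under 0.05. At 1 Hz against control, 0 members were higher and 1 (Hspd1) lower, where 19.2% of all genes tested were higher and 18.1% lower. At 4 Hz, 1 member was higher (Dnajb1) and 1 lower (Hspd1), against 27.5% and 23.9% of all genes. There 4 of 10 members reached an unadjusted p under 0.05, and DESeq2 called 4 (1 higher and 3 lower). The share of all genes by these criteria is not given, so nothing is concluded from these counts. By edgeR at the adjusted p, 51.4% of all genes were called at 4 Hz in either direction. At 10 Hz, edgeR called 0 of 10 members in either direction, 0 of 10 reached an unadjusted p under 0.05, and DESeq2 called 0. Of all genes, 0.0376% were called (0.015% higher, 0.0225% lower). At 1, 4 and 10 Hz, the median log2 fold change over the 10 members was -0.17, -0.02 and -0.12, and that over all genes tested was 0.04, 0.06 and 0.01.

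The frequencies were also compared with each other. At 10 Hz against 4 Hz, 1 member was higher (Hspd1) and 1 lower (Dnajb1), beside 21.9% and 24.4% of all genes. At 10 Hz against 1 Hz, 1 member was higher (Hspd1), beside 14.8% of all genes, and 0 were lower, beside 13.1%. At 4 Hz against 1 Hz, edgeR called 0 members and 0 of 13315 genes (0% in either direction); at an unadjusted p under 0.05 these were 0 and 1465, and DESeq2 called 0 and 38. In a test for any difference among the 4 conditions, which calls 50.3% of all genes, Hspd1 (adjusted p = 2.75e-07) and Dnajb1 (adjusted p = 0.0474) were called, and the adjusted p of the other 8 members ran from 0.146 for Hspe1 to 0.992 for Hspa1a. The count of 2 was 1 when any one of 16 of the 24 libraries was left out (control 4 and 5, 1 Hz 1, 2, 3, 4 and 6, 4 Hz 1 to 5, and 10 Hz 1, 2, 4 and 6), and also with DESeq2 size factors, with no low-count filter, with a replicate block or without the 4 libraries of low scaling factor.

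These counts were different with limma-trend on the TPM scale. That setting changed the unit, the scaling, the test and the gene filter together, so the shift cannot be put down to the unit alone. On log2(TPM + 1), tested with limma-trend, the median over all genes moved by -0.14 at 1 Hz and by -0.21 at 4 Hz, and the share of genes called was 3.58% higher and 21.9% lower at 1 Hz and 5.83% higher and 35.9% lower at 4 Hz. On that scale 4 members (Hspa8, Hsp90aa1, Dnaja1 and Hspd1) were called lower and 0 higher at both frequencies. Relative to the median of all genes on the TPM scale, their log2 differences were -0.33, -0.38, -0.38 and -0.56 at 1 Hz and -0.30, -0.43, -0.47 and -0.76 at 4 Hz, in that order of genes. At 10 Hz, 0 members and 0% of genes were called on the TPM scale, where the median moved by -0.01.

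**Figure D2:**
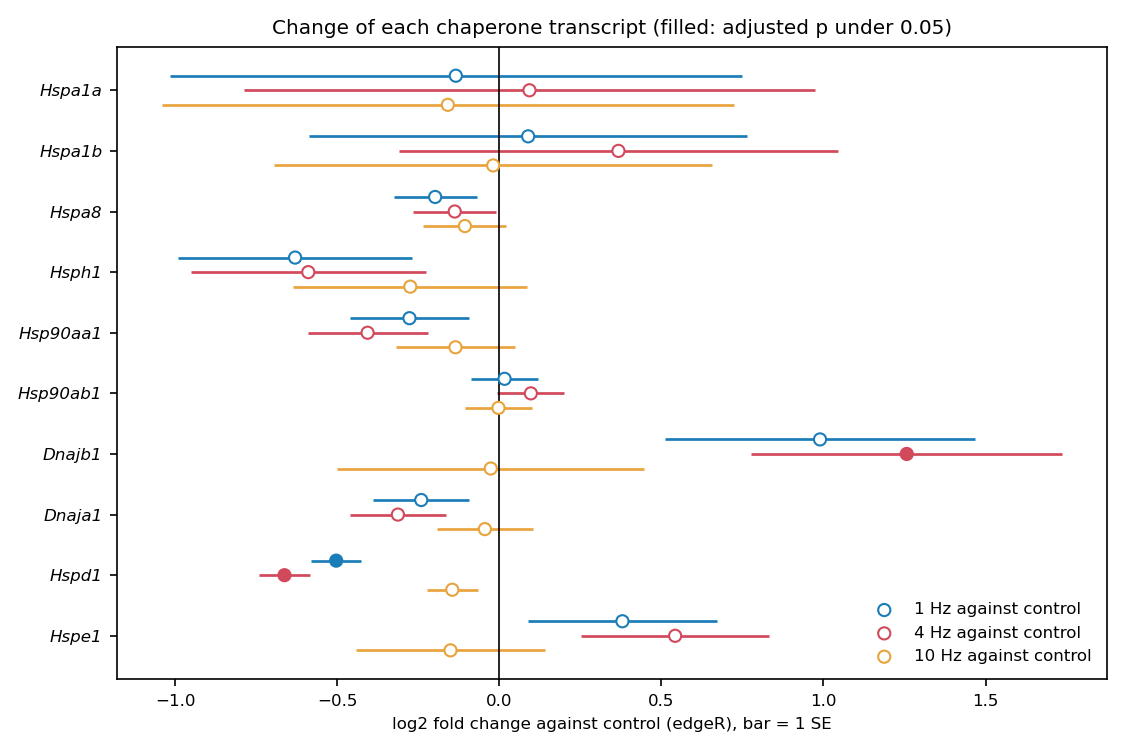
Log2 fold change of each member against control (horizontal, edgeR, bars of 1 SE) at 1 Hz, 4 Hz and 10 Hz, with filled points where the adjusted p was under 0.05. Filled points are Hspd1 at 1 Hz and 4 Hz and Dnajb1 at 4 Hz; the bars of Hspa1a and Hspa1b are the widest, at 0.88 and 0.68.

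Among the HSP70 genes, the inducible pair varied more between libraries of 1 condition than between conditions. Hspa1b had a lowest, median and highest level of 236, 1652 and 2553 CPM in the controls and of 102, 2011 and 2679 at 1 Hz. At 4 Hz these levels were 586, 2089 and 3552 CPM, and at 10 Hz 192, 1369 and 2856. The 4 ranges overlapped almost wholly. The lowest libraries were control library 3, 1 Hz library 5, 4 Hz library 6 and 10 Hz library 2. Against control at 1, 4 and 10 Hz, Hspa1b gave log2 fold changes of 0.09 ± 0.68 (SE), 0.37 ± 0.68 and -0.02 ± 0.68 (edgeR adjusted p = 0.929, 0.669 and 0.999). At 1 Hz its sign turned on the TPM scale (-0.32).

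Hspa1a, the second gene for inducible HSP70, ran from 34.7 to 997 CPM in the controls (median 560), from 10.7 to 853 at 1 Hz (median 581), from 108 to 1106 at 4 Hz (median 617) and from 16.6 to 1128 at 10 Hz (median 328). The lowest library of each condition was the same as for Hspa1b. Its log2 fold changes, in the same order, were -0.13 ± 0.88, 0.09 ± 0.88 and -0.16 ± 0.88, with adjusted p from 0.918 to 0.991. Without the 4 libraries of low scaling factor, that at 4 Hz was -0.29. With the counts of both genes summed, the log2 fold changes were 0.03, 0.30 and -0.05, with adjusted p of 0.974, 0.745 and 0.995, and no difference was called either.

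Hspa8, the constantly made HSP70, was steadier. It had a median of 2518 CPM in the controls (1721 to 2882), 2253 at 1 Hz (1415 to 2426), 2185 at 4 Hz (1751 to 2690) and 2253 at 10 Hz (1795 to 2674). No condition stood apart from the controls in CPM, with log2 fold changes of -0.20 ± 0.13, -0.14 ± 0.13 and -0.11 ± 0.13 (adjusted p = 0.23, 0.382 and 0.927). Hsph1, the HSP110 protein that acts as an exchange factor of HSP70, was at 605 CPM in the controls (median, 191 to 858), 427 at 1 Hz (99.6 to 487), 426 at 4 Hz (228 to 459) and 455 at 10 Hz (178 to 686). The highest library at 1 Hz and at 4 Hz lay below the control median, and the control range reached lower than that at 4 Hz. The log2 fold changes were -0.63 ± 0.36, -0.59 ± 0.36 and -0.27 ± 0.36, and none passed the test (adjusted p = 0.177, 0.18 and 0.934).

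The 2 HSP90 genes differed in level and spread. Hsp90ab1 had a median of 3412 CPM in the controls (2839 to 3809), 3506 at 1 Hz (2661 to 3988), 3561 at 4 Hz (2893 to 4195) and 3204 at 10 Hz (2890 to 4057). The 4 ranges overlapped, with log2 fold changes of 0.02 ± 0.10, 0.10 ± 0.10 and -0.00255 ± 0.103 (adjusted p = 0.914, 0.444 and 0.999); on the TPM scale those at 1 Hz and 4 Hz were -0.22 and -0.25. Hsp90aa1 had a median of 1837 CPM in the controls (1129 to 2391), 1510 at 1 Hz (904 to 1836), 1403 at 4 Hz (1030 to 1695) and 1568 at 10 Hz (1138 to 2233). At both lower frequencies its highest library lay at or under the control median. The log2 fold changes of Hsp90aa1 were -0.28 ± 0.19 (adjusted p = 0.245), -0.41 ± 0.19 (adjusted p = 0.0694) and -0.14 ± 0.19 (adjusted p = 0.939). At 4 Hz it would be called by DESeq2 (adjusted p = 0.0357), with only the 2 conditions in the fit (0.0344), or without control library 3 (0.0156) or 4 Hz library 5 (0.0357).

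Of the J-domain genes, Dnajb1 was the only member called higher in a stimulated condition. Dnajb1 encodes the main stress-induced partner of HSP70. It had a lowest, median and highest level of 131, 494 and 774 CPM in the controls and of 168, 1159 and 1237 at 1 Hz. At 4 Hz the levels were 617, 1226 and 1404 CPM, and at 10 Hz 151, 437 and 788. In 5 of 6 libraries at 4 Hz and 4 of 6 at 1 Hz it was above all controls, while the range at 10 Hz nearly coincided with that of the controls. The mean was 477 ± 267 CPM (SD, n = 6) without stimulation, and 947 ± 427, 1140 ± 279 and 468 ± 266 CPM with rising frequency.

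Dnajb1 rose at 4 Hz by a log2 fold of 1.26 ± 0.48 (edgeR adjusted p = 0.0339). At 1 Hz the value was 0.99 ± 0.48 (adjusted p = 0.108). At 10 Hz it was -0.03 ± 0.47 (adjusted p = 0.996). Between the frequencies, 10 Hz was lower than 4 Hz by a log2 difference of -1.28 ± 0.48 (adjusted p = 0.0342), and 10 Hz against 1 Hz gave -1.02 (adjusted p = 0.116). The size held in every alternative at 4 Hz against control (1.11 to 1.29, and 1.04 to 1.45 with 1 library left out), but the call lay near the threshold. It was lost with no low-count filter (adjusted p = 0.0787), with a replicate block (0.0827), on the TPM scale (0.0738), without the 4 libraries of low scaling factor (0.123), and without any one of control libraries 3, 4 and 5 or of 4 Hz libraries 1, 3, 4 and 5 (0.0529 to 0.0756). At 10 Hz against 4 Hz the call was lost with no low-count filter (0.0759), with a replicate block (0.0724), on the TPM scale (0.0707), without the 4 libraries (0.122), and without any one of 4 Hz libraries 1, 3, 4 and 5 or of 10 Hz libraries 1, 2 and 6 (0.0537 to 0.0813). At 1 Hz, leaving out library 5, the low one, gave 1.21 with an adjusted p of 0.0294. The small nuclear RNA Rn7sk, described further on with its levels, was also higher at 1 Hz and 4 Hz than in the controls on average, and its part was not tested.

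Dnaja1, a J-domain partner of the constant HSP70, had a median of 545 CPM in the controls (335 to 588), 465 at 1 Hz (248 to 520), 416 at 4 Hz (359 to 493) and 508 at 10 Hz (365 to 611). At 4 Hz every library was below 5 of the 6 controls, and control library 3 lay below all of them. The log2 fold changes were -0.24 ± 0.15, -0.31 ± 0.15 and -0.04 ± 0.15 (adjusted p = 0.205, 0.0796 and 0.987). At 4 Hz it passed by DESeq2 (0.048), with only the 2 conditions in the fit (0.0174), and without control library 3 (-0.43, adjusted p = 0.0115) or 4 Hz library 5 (0.0413). At 10 Hz against 4 Hz the log2 difference of Dnaja1 was 0.27 (adjusted p = 0.14). It passed with only the 2 conditions in the fit (0.29, adjusted p = 0.0319), on the TPM scale (0.57, adjusted p = 0.0033) and without 10 Hz library 2, the low one (0.37, adjusted p = 0.0439).

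Of the mitochondrial chaperonin pair, Hspd1 fell at 1 Hz and 4 Hz and Hspe1 was not called. Hspd1 (Hsp60) forms the folding chamber of the mitochondrial matrix, and Hspe1 (Hsp10) forms its lid. Hspd1 ran from 596 to 743 CPM in the controls (median 709), from 412 to 540 at 1 Hz (median 491), from 406 to 470 at 4 Hz (median 434) and from 526 to 701 at 10 Hz (median 616). At 1 Hz and at 4 Hz all 6 libraries lay below all 6 controls, which 8.58% and 14.7% of all genes tested did, and at 10 Hz 3 of 6 did.

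Hspd1 fell at 1 Hz (log2 fold change -0.50 ± 0.08, edgeR adjusted p = 2.13e-05) and at 4 Hz (-0.66 ± 0.08, adjusted p = 2.69e-07). These are levels 0.706 and 0.632 times those of the controls. At 10 Hz it was -0.14 ± 0.08 (adjusted p = 0.667). The difference between frequencies was itself called: 10 Hz against 4 Hz gave 0.52 ± 0.08 (adjusted p = 1.25e-05), with all 6 libraries above all 6 at 4 Hz, as for 10.8% of all genes, and 10 Hz against 1 Hz gave 0.36 ± 0.08 (adjusted p = 0.00143) with 5 of 6 above. 4 Hz against 1 Hz gave -0.16 ± 0.08 (adjusted p = 0.455). Hspd1 was called at 1 Hz and at 4 Hz under all 10 alternatives and with each library left out, and its log2 fold change at 4 Hz was -0.97 to -0.63 over the alternatives. In bulk tissue, fewer cells of a type and less RNA per cell cannot be told apart. The summed myoblast markers and Myog, given above, were lower in the same 2 conditions, while the myoblast marker Myf5 was higher. The other 7 myotube markers were not called by edgeR. The median summed level of the myotube markers was 11330 CPM in the controls, 11470 at 1 Hz and 12320 at 4 Hz. Rn7sk, a small nuclear RNA, was higher at 1 Hz and 4 Hz on average (15.1 and 16.4 CPM against 5.42 in the controls). Its CPM are of total counts, without TMM factors. The share of ribosomal protein genes was higher there as well (6.24% and 6.85% against 4.94%). The correlation of Hspd1 with these 2 measures over the 24 libraries was -0.424 and -0.514, and within conditions 0.523 and 0.53. The part of these measures in the result was not tested.

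Hspe1, transcribed from the other side of the same promoter region, was called in none of these comparisons. Within conditions it varied with Hspd1 (Pearson r = 0.735, Spearman 0.723 over 24 libraries, condition means removed, r = 0.644 without the 2 libraries farthest out, adjusted permutation p = 2.7e-05). This was not particular to the pair. With condition means kept, r was -0.11. Hspe1 ranked 137 among all 13315 genes ordered by their correlation with Hspd1 within conditions. Its lowest, median and highest levels were 97.8, 149 and 204 CPM in the controls, 83.0, 184 and 299 at 1 Hz, 141, 173 and 379 at 4 Hz, and 94.3, 136 and 176 at 10 Hz. The ranges overlapped, with the highest values in 1 Hz libraries 4 and 6 and 4 Hz libraries 1 and 3. The log2 fold changes were 0.38 ± 0.29, 0.54 ± 0.29 and -0.15 ± 0.29 (adjusted p = 0.316, 0.125 and 0.968), and 10 Hz against 4 Hz gave -0.69 ± 0.29 (adjusted p = 0.0575). That comparison passed with only the 2 conditions in the fit (-0.67, adjusted p = 0.0484), and without 4 Hz library 2 (0.0374) or 6 (0.0464) or 10 Hz library 5 (0.0499). The value at 4 Hz was 0.29 without 4 Hz library 3, the highest, and 0.16 on the TPM scale. That at 1 Hz was 0.06 on the TPM scale and turned to -0.06 without the 4 libraries of low scaling factor.

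**Figure D3:**
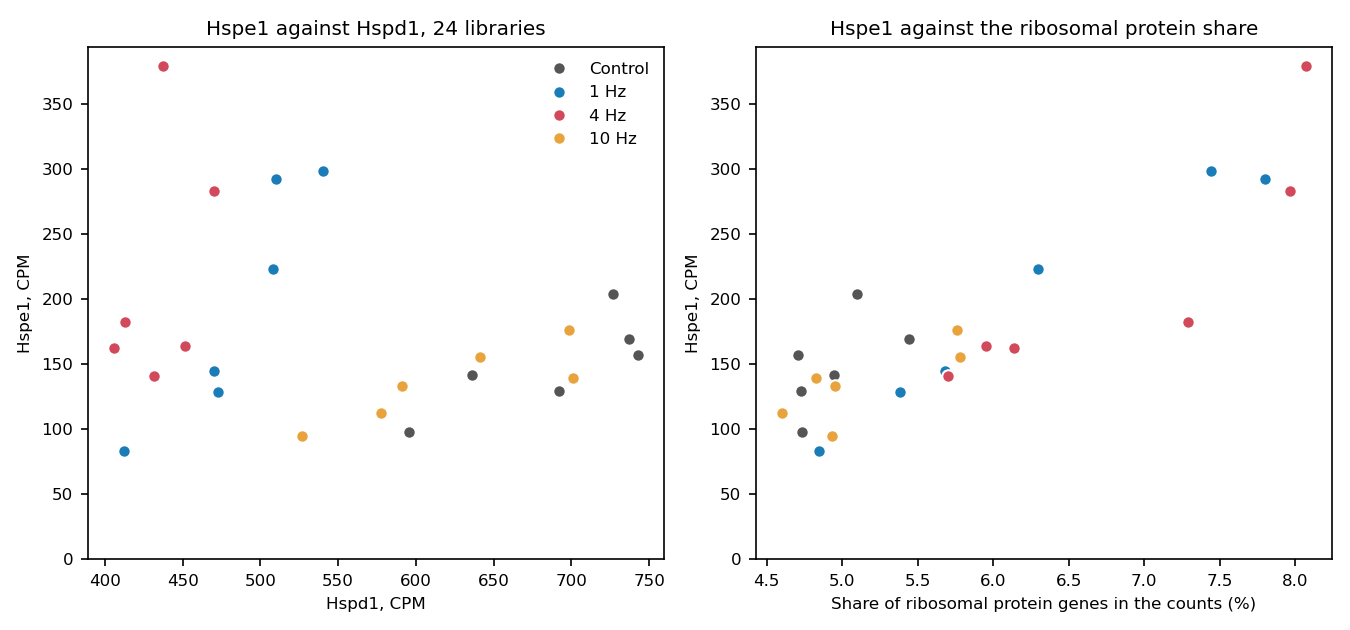
Hspe1 in CPM (vertical) against Hspd1 in CPM (left) and against the share of cytosolic ribosomal protein genes in the counts (right), with 1 point per library coloured by condition. The 1 Hz and 4 Hz libraries form a column at low Hspd1, between 406 and 540 CPM, in which Hspe1 reaches 379 CPM, and Hspe1 is high where the ribosomal protein share is high.

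The ratio of Hspe1 to Hspd1 counts within a library was computed after their values had been seen and is given as a description. It was from 0.164 to 0.281 in the controls, 0.201 to 0.572 at 1 Hz, 0.327 to 0.868 at 4 Hz and 0.179 to 0.252 at 10 Hz. All 6 libraries at 4 Hz had a higher ratio than all 6 controls and than all 6 libraries at 10 Hz. Hspd1 alone already separated these libraries in full, as 14.7% and 10.8% of all genes did in the direction of Hspd1. No share over other pairs of genes is given, so nothing is concluded from the separation of the ratio. Control and 10 Hz had nearly the same mean ratio (a log2 difference of 0.01). Hspe1 moved with a property of the library: across 24 libraries, with the condition means removed, its log2 CPM had a Pearson correlation of 0.89 and a Spearman correlation of 0.85 with the log2 share of ribosomal protein genes (r = 0.858 without the 2 libraries farthest out in that share). That share was 4.71% to 5.45% in the controls, 4.85% to 7.80% at 1 Hz, 5.70% to 8.07% at 4 Hz and 4.60% to 5.78% at 10 Hz. For Hspd1 the same correlation was 0.53. What part the ribosomal protein share had in the ratio was not tested.

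Some of the members varied widely within a condition and others little. With condition means removed, the SD of log2 CPM was 1.98 for Hspa1a and 1.42 for Hspa1b, where the median over 13315 genes was 0.21. Among the 2150 genes with a mean of at least 100 CPM no other gene was as variable as these 2. Dnajb1 (0.92), Hsph1 (0.71) and Hspe1 (0.52) followed, then Hsp90aa1 (0.35), Dnaja1 (0.29) and Hspa8 (0.25), while Hsp90ab1 (0.19) and Hspd1 (0.13) were below the median of all genes. Against the 2150 genes at 100 CPM or more, whose median was 0.147, Hspd1 was below and Hsp90ab1 above. The highest library had 105 times the Hspa1a level of the lowest, 34.9 times for Hspa1b, 10.7 times for Dnajb1 and 1.83 times for Hspd1. The SE of a fold change of Hspa1a or Hspa1b (0.88 and 0.68) was larger than the whole fold change of Hspd1 at 4 Hz, so a difference of that size was not detectable in these 2 genes.

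This spread was shared. With the condition means removed, the Pearson correlation with Hspa1b over 24 libraries was 0.997 for Hspa1a, 0.976 for Dnajb1, 0.961 for Hspa8, 0.93 for Hsp90aa1, 0.922 for Hsph1, 0.912 for Dnaja1, 0.895 for Hsp90ab1, 0.807 for Hspd1 and 0.623 for Hspe1. Among all 13315 genes ordered by this correlation, Hspa8 ranked 4, Hsp90aa1 19, Hsph1 27, Dnaja1 34, Hsp90ab1 45, Hspd1 128 and Hspe1 691. Genes outside the chaperone families stood among the first 10, namely Cxcl1 (0.952), Ier5 (0.951), Trib1 (0.945), Dusp5 (0.943) and Irs2 (0.94), so the shared variation was not particular to the members. Spearman correlations of the members ran from 0.57 for Hspe1 to 0.99 for Hspa1a. Without the 2 libraries farthest out in Hspa1b the Pearson values ran from 0.424 for Hspe1 and 0.692 for Hspd1 to 0.995 for Hspa1a. In a permutation test within conditions (100000 draws, 12 relations computed) the adjusted p of r was 0.00226 for Hspe1 and at most 1.2e-04 for the other 8. Hspa1a and Hspa1b share sequence, and all genes of a library share its scaling, so these values are not independent. Libraries with high Hspa1b also had more counts of the small nuclear RNA gene Rn7sk (r = 0.747 within conditions), a transcript without a poly(A) tail. Rn7sk also differed in level between conditions, in CPM of total counts without TMM factors. It had 2.38 to 8.37 CPM in the controls (mean 5.42), 4.77 to 26.8 at 1 Hz (15.1), 6.08 to 41.4 at 4 Hz (16.4) and 3.34 to 11.2 at 10 Hz (5.33). Its high levels thus fell in the conditions in which Dnajb1 was high (r = 0.811 over all 24 libraries, 0.713 within conditions; 0.721 and 0.663 for Hspe1). Its part in these results was not tested.

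**Figure D4:**
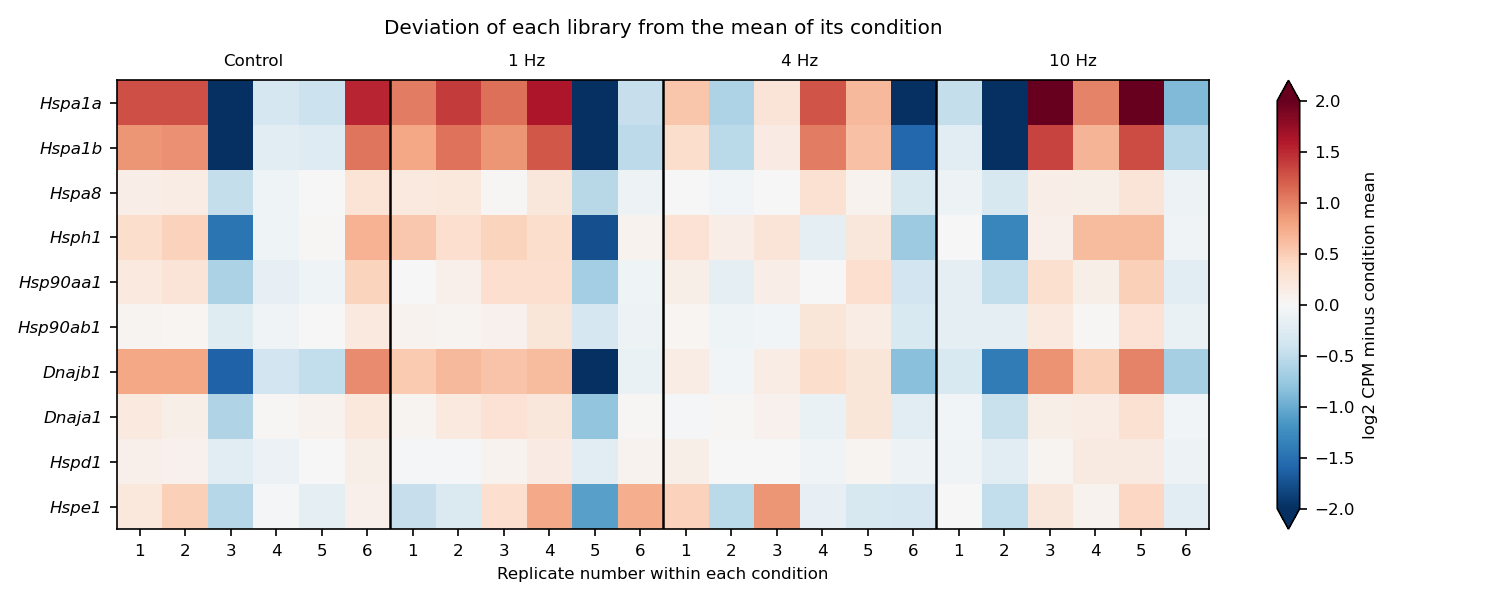
Log2 CPM of each member minus the mean of its condition (colour, capped at 2 in either direction) in each of the 24 libraries, ordered by condition and replicate number. Control library 3, 1 Hz library 5, 4 Hz library 6 and 10 Hz library 2 are blue in all members or nearly so, and the colours are deepest in Hspa1a and Hspa1b and palest in Hspd1.

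The ratio of Dnajb1 to Hspa1b counts within a library was likewise chosen after its values had been seen. In the controls it was 0.279 to 0.303 in 5 libraries and 0.555 in library 3, the one with the lowest Hspa1b. It was 0.46 to 1.65 at 1 Hz (median 0.577), 0.395 to 1.05 at 4 Hz (median 0.589) and 0.261 to 0.788 at 10 Hz (median 0.323). The libraries at 1 Hz and 4 Hz thus had more Dnajb1 for their Hspa1b than 5 of the 6 controls, in 12 of 12 libraries, and at 10 Hz the ratio was 0.788 in library 2, with the lowest Hspa1b, and at most 0.337 in the other libraries. No share over other pairs of genes is given beside these counts, so nothing is concluded from them. The mean log2 ratio of Dnajb1 to Hspa1b exceeded that of the controls by 1.1, 0.946 and 0.123 with rising frequency. The ratio of Hsph1 to Hspa1b moved the other way at 4 Hz (a log2 difference of -1.01) with overlapping ranges of 0.093 to 0.389 at 4 Hz and 0.298 to 0.808 in the controls. The ratio of Hsp90aa1 to Hsp90ab1 was 0.398 to 0.628 in the controls and 0.321 to 0.431 at 4 Hz, and that of Hspa1a to Hspa1b had overlapping ranges in all conditions.

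**Figure D5:**
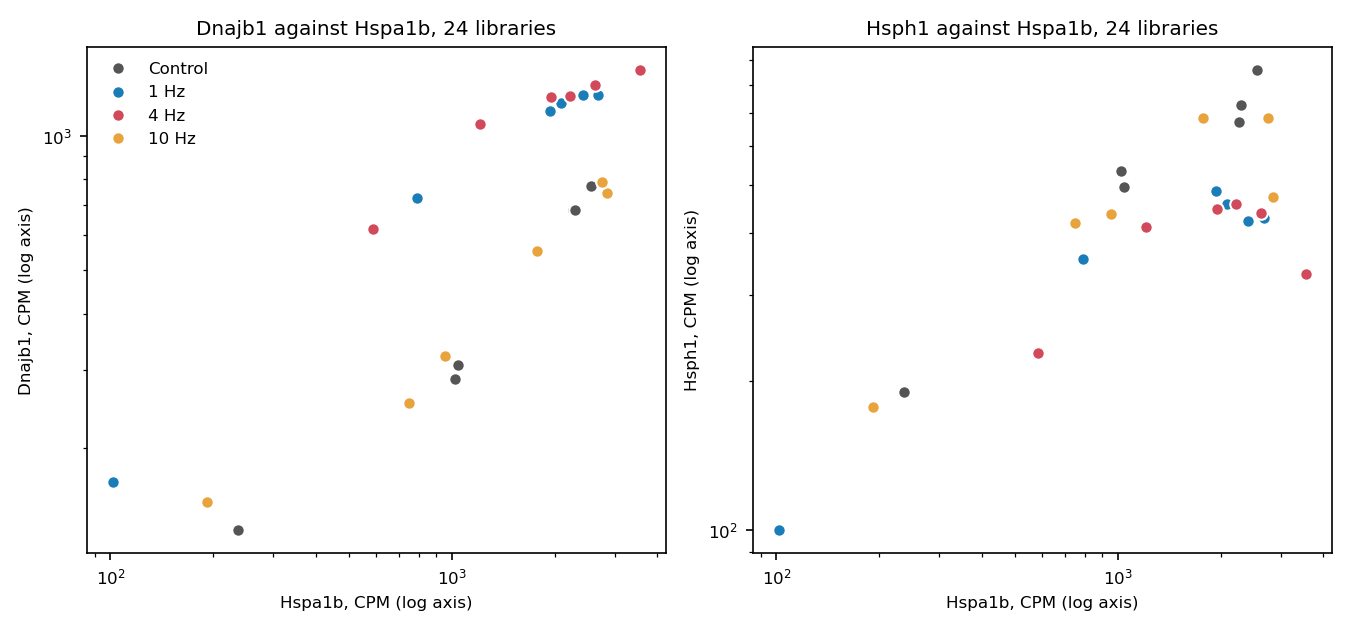
Dnajb1 (left) and Hsph1 (right) against Hspa1b, all in CPM on log axes, with 1 point per library coloured by condition. On the left the 1 Hz and 4 Hz libraries run above the line of control and 10 Hz libraries at equal Hspa1b; on the right they run at or below it where Hspa1b is high.

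The genes most like 3 of the members within conditions were found among all 13315 genes. Those closest to Hspa1b were Hspa1a, Bag3 (r = 0.976), an HSP70 exchange factor, and Dnajb1. Closest to Hsp90aa1 were Dnajb4 (0.958), Ccnl1 (0.953) and Dusp5 (0.952), and closest to Hspd1 were Bdnf (0.9), Smco3 (0.891) and Ccnl1 (0.886). Bag3, like Hspa1a and Hspa1b, was not called at 4 Hz (-0.17, adjusted p = 0.693). Bdnf rose by 1.21 at 4 Hz (adjusted p = 0.000552), where Hspd1 fell; these 2 genes were chosen after their values were seen.

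The remaining genes of the chaperone network are given by lists. Their counts, from edgeR, stand beside 19.2% higher and 18.1% lower among all genes at 1 Hz and 27.5% and 23.9% at 4 Hz. As for the members, limma-trend on the TPM scale gave counts shifted toward lower calls (all genes, 3.58% higher and 21.9% lower at 1 Hz, 5.83% and 35.9% at 4 Hz). Its counts follow each list as the TPM scale. Unit, scaling, test and filter changed together in that setting, and the cause of the shift was not tested. Among heat shock factors and their regulators, 5 of 7 genes were tested; 2 were higher and 0 lower at 1 Hz, and 2 higher and 1 lower at 4 Hz. At 1 Hz the 2 calls became 0 without 1 Hz library 4 or 6, and 1 without any one of control libraries 2 to 6 or 1 Hz libraries 2 and 3. Hsbp1, which binds HSF1 and limits it, rose by 0.50 ± 0.10 at 4 Hz (adjusted p = 0.000277), and Hsf2bp rose by 0.62 ± 0.13 (adjusted p = 0.000488). Hsf1 itself gave 0.05, 0.05 and 0.09 with rising frequency (adjusted p = 0.675, 0.618 and 0.88), and -0.25 at 4 Hz on the TPM scale (adjusted p = 0.151). On the TPM scale 0 were higher and 1 lower at either frequency, and neither Hsbp1 (adjusted p = 0.056) nor Hsf2bp (0.291) passed.

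Of 19 well-known HSF1-induced genes outside the members, all tested, 1 was higher and 5 lower at 1 Hz, and 3 higher and 5 lower at 4 Hz, with a median log2 fold change of -0.02 and 0.03. On the TPM scale 0 were higher and 7 lower at 1 Hz, and 0 higher and 10 lower at 4 Hz. Chordc1, an HSP90 co-chaperone that heat induces, fell by 1.45 ± 0.10 on the log2 scale at 4 Hz (adjusted p = 2.37e-11), from 81.5 ± 2.76 to 29.9 ± 5.10 CPM. Hmox1, the heme oxygenase that oxidants induce, fell by 0.94 ± 0.11 (adjusted p = 3.68e-07). Both were below all controls in 6 of 6 libraries at 4 Hz, as were 14.7% of all genes tested. The list shares Chordc1, Stip1, Ahsa1, Fkbp4, Bag3, Hspa4, Hspa4l, Tcp1, Cct2, Dnajb4, Cryab, Hspb1 and Hspb8 with the lists that follow.

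Of 23 HSP90 co-chaperones, all tested, 1 was higher and 6 lower at 1 Hz, and 4 higher and 7 lower at 4 Hz (TPM scale: 0 and 10, then 0 and 14). Without 1 Hz library 4, 11 were called at 1 Hz. Besides Chordc1, Tomm70a, the mitochondrial import receptor that docks HSP70 and HSP90, fell by 0.85 ± 0.09 at 4 Hz (adjusted p = 9.13e-08). Of 9 exchange factors and partners of HSP70, 1 was higher and 0 lower at 1 Hz, and 2 higher and 0 lower at 4 Hz (TPM scale: 0 and 1, then 0 and 3). Stub1, a ubiquitin ligase for HSP70 clients, rose by 0.40 ± 0.08 (adjusted p = 0.000373; 0.597 on the TPM scale). Bag1 rose by 0.24 ± 0.10 (adjusted p = 0.045), a call lost without any one of control libraries 2, 3, 4 and 5 or 4 Hz libraries 1, 3, 4 and 5 (0.0577 to 0.194). The call of Bag1 was kept in 3 of 10 other settings and was lost with a replicate block (0.0618), DESeq2 size factors (0.0651), the DESeq2 test (0.0753), no low-count filter (0.146) or without the 4 libraries of low scaling factor (0.203), and Bag1 was at -0.10 on the TPM scale. Of 16 other J-domain genes tested of 17, 2 were higher and 6 lower at 1 Hz, and 3 higher and 7 lower at 4 Hz (TPM scale: 0 and 7, then 0 and 11). Dnajc5, a synaptic vesicle chaperone, fell by 0.45 ± 0.07 (adjusted p = 9.23e-06), and Dnajb5 rose by 0.63 ± 0.10 (adjusted p = 1.11e-05; 0.0593 on the TPM scale).

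Genes of other families and compartments were counted alike. Of the 7 tested of 8 other HSP70 and HSP110 genes, 0 were higher and 2 lower at 1 Hz, and 1 higher and 2 lower at 4 Hz (TPM scale: 0 and 2, then 0 and 4). The 2 calls at 1 Hz became 1 without any one of control libraries 1, 3, 4 and 5 or 1 Hz libraries 1, 2 and 3. The HSP110 gene Hspa4 fell by 0.47 ± 0.07 (adjusted p = 4.5e-06) and Hspa14 by 0.29 ± 0.08 (adjusted p = 0.00407). In the endoplasmic reticulum, 2 of 3 genes were higher at 1 Hz and at 4 Hz: Hsp90b1, the HSP90 of that compartment, rose by 0.48 ± 0.08 at 4 Hz (adjusted p = 3.72e-05) and Hspa5 (BiP), its HSP70, by 0.46 ± 0.09 (adjusted p = 0.000104). On the TPM scale these were not called (adjusted p = 0.152 and 0.129), and the list had 1 higher and 0 lower at 1 Hz, and 0 higher and 1 lower at 4 Hz. Of 15 mitochondrial chaperones and proteases beside Hspd1 and Hspe1, 2 were higher and 2 lower at 1 Hz, and 6 higher and 3 lower at 4 Hz (TPM scale: 1 and 3, then 2 and 6). Dnajc11 fell by 1.14 ± 0.10 at 4 Hz (adjusted p = 1.7e-09), and Hscb, a J-protein of iron-sulfur cluster assembly, rose by 0.89 ± 0.17 (adjusted p = 0.000136). Hspa9, the mitochondrial HSP70 that works beside Hspd1, gave -0.05 at 4 Hz (adjusted p = 0.453).

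Of 16 genes of the cytosolic chaperonin TRiC and of prefoldin, 4 were higher and 2 lower at 1 Hz, and 2 higher and 3 lower at 4 Hz (TPM scale: 1 and 5, then 1 and 9). The 6 calls at 1 Hz became 3 without 1 Hz library 4. The TRiC subunits Cct3 and Cct8 fell by 0.31 ± 0.06 (adjusted p = 0.00012) and 0.26 ± 0.06 (adjusted p = 0.000465) at 4 Hz. Of 7 small heat shock proteins, 2 were higher and 1 lower at 1 Hz, and 1 higher and 1 lower at 4 Hz (TPM scale: 0 and 2, then 1 and 2). The 3 calls at 1 Hz became 1 without 1 Hz library 6. Hspb2, a muscle form, rose by 0.58 ± 0.12 (adjusted p = 0.000331) and Hspb8 fell by 0.25 ± 0.08 (adjusted p = 0.0152). Among 3 genes of myosin folding in muscle (Hsp90aa1 among them), edgeR called 0 at 1 Hz and at 4 Hz, while limma on the TPM scale called 3 of 3 lower at both. At an unadjusted p under 0.05 edgeR had 1, Hsp90aa1 at 4 Hz, which DESeq2 also called. Without 1 Hz library 4 at 1 Hz, or without control library 3 or 4 Hz library 5 at 4 Hz, edgeR called 1. Unc45b, the myosin chaperone, gave -0.17 at 4 Hz (edgeR adjusted p = 0.344), and -0.468 on the TPM scale (limma adjusted p = 0.00857). Smyd1 gave 0.04 (edgeR adjusted p = 0.762), and -0.304 on the TPM scale (limma adjusted p = 0.0372).

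At 10 Hz, edgeR called 0 of the 108 genes of these 11 lists that are not members; 6 reached an unadjusted p under 0.05, and DESeq2 called 0. The smallest p in each list belonged to Hsf1, Hspa4 (-0.10, adjusted p = 0.78), Hsp90b1 (0.05, 0.956), Cdc37l1 (-0.19, 0.536), Stub1 (0.20, 0.531), Dnaja2 (-0.13, 0.729), Clpx (-0.14, 0.692), Cct8 (-0.11, 0.653), Hspb8 (-0.24, 0.388, in 2 lists) and Smyd1 (-0.27, 0.441). Of these, Cdc37l1, Cct8 and Smyd1 were below all controls in 5 of 6 libraries. They were named for the smallest p in their lists, and none was called. No share over all genes is given beside this count, so nothing is concluded from it.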

How the data were processed

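RNA of 24 tissues (6 per condition) was sequenced by the authors as directional paired-end libraries and processed with the nf-core/rnaseq pipeline and GRCm39 annotation; the processing notes name Salmon, STAR, BWA and bedtools without their roles. The deposited estimated counts per gene are not normalized (6.15% are not whole), and the deposited TPM were divided by transcript length by the authors. Here estimated counts were rounded, filtered by filterByExpr (minimum count 10, total 15), scaled by TMM and tested with edgeR 4.0.16 in R 4.3.3 (robust quasi-likelihood F test, 1 mean per condition, Benjamini-Hochberg over 13315 genes). CPM use TMM library sizes, except those of Rn7sk, which use total counts without TMM factors. The log2 CPM of the genes tested use a prior count of 2. The study's own threshold added an absolute log2 fold change over 0.5, tried as an alternative. DESeq2 1.42.0 and limma 3.58.1 (log2 of TPM plus 1 or 0.1, genes at 1 TPM or more in 6 libraries) served as alternatives, with other scalings and filters, 2 conditions only, a replicate block and each library left out. edgeR, DESeq2 and limma were tested on simulated data. Depth was 8052369 to 18159144 counts, with a biological coefficient of variation of 14.8%. All 10 members are named, and each list gives its top 2 genes by p at 4 Hz and its top 1 at 10 Hz; Hspa9, Bag3 and Bdnf values and the correlation tests were added after values were seen. The p-values of condition comparisons set a difference against the spread between these tissues, all of 1 cell line. Those of correlations come from permuting libraries within conditions. The members and lists were chosen with earlier results of these data known.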

Additional observations from a re-analysis of the deposited data

Results flagged for a closer look

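In groups of 6 libraries, 3 of 40 member and condition pairs had 1 library farther from the others than Dixon's criterion allows, where chance gives about 1 in 20. These were Hsph1 in 1 Hz library 5 (99.6 CPM, nearest other 354), Dnaja1 in control library 3 (335 CPM, nearest 520) and Dnaja1 in 1 Hz library 5 (248 CPM, nearest 436). The same 2 libraries were the lowest of their condition in Hspa1a, Hspa1b and Dnajb1.

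The response at 10 Hz differed from that at a lower frequency, tested as the difference itself with edgeR, in 3 cases. For Dnajb1 the log2 effect at 10 Hz minus that at 4 Hz was -1.284 (adjusted p = 0.0342), a call that lies near the threshold. For Hspd1 the effect at 10 Hz exceeded that at 4 Hz by 0.5176 (adjusted p = 1.25e-05) and that at 1 Hz by 0.3582 (adjusted p = 0.00143).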

How the results depend on the processing

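Of 400 fold changes of the members under other settings, 350 kept direction and side of the threshold, 24 passed newly, 10 no longer passed and 16 changed sign, all 16 of them without a call. With 1 library left out, 409 of 480 were kept. Members called: at 1 Hz 1, but 4 (all lower) on TPM; at 4 Hz 2, but 1 without a filter, 1 with the replicate block, 1 without the 4 libraries of low scaling factor (chosen after seeing the data), 4 (1 higher, 3 lower) with DESeq2 or 2 conditions only and 4 (all lower) on TPM; at 10 Hz against 4 Hz 2, but 1 without a filter, with the block or without the 4 libraries, 4 (2 higher, 2 lower) with 2 conditions only and 4 (all higher) on TPM; at 10 Hz against 1 Hz 1, but 0 over the fold threshold of 0.5 and 2 on TPM; for any difference 2, but 1 with DESeq2 size factors, without a filter, with the block or without the 4 libraries. With 1 library left out these counts were 1 to 2, 1 to 3, 1 to 3, 1 to 2 and 1 to 2. The shares of all genes called by limma-trend on log2(TPM + 1) were 33.2% higher and 5.06% lower at 10 Hz against 4 Hz. At 10 Hz against 1 Hz they were 15.5% and 2.19%. Those at 1 Hz and 4 Hz against control are given above. No such share is given beside the counts from DESeq2 or from 2 conditions only, so nothing is concluded from those. The cause of the shifts in the member counts was not tested.

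Signs turned as follows. On TPM, at +1 and +0.1: Hspa1b at 1 Hz -0.32 and -0.323, Hsp90ab1 at 1 Hz -0.217 and at 4 Hz -0.252, Hsp90ab1 at 10 Hz against 4 Hz 0.225, Bag1 at 4 Hz -0.0953 and -0.0955, Smyd1 at 4 Hz -0.304 and -0.314 (called lower on TPM, adjusted p = 0.0372 and 0.0374). Without a filter: Hsp90ab1 at 1 Hz -0.0175, Smyd1 -0.00508. With the block: Hspa1b at 1 Hz -0.105, Hspa1a at 4 Hz -0.292. Without the 4 libraries: Hsp90ab1 at 1 Hz -0.0233, Hspe1 at 1 Hz -0.0578, Hspa1a at 4 Hz -0.292 and at 10 Hz against 4 Hz 0.126, Smyd1 -0.000404. With upper-quartile factors: Hspa8 at 10 Hz against 4 Hz -0.00492. With 1 library left out, log2 fold changes without a call spanned 0: at 1 Hz Hspa1a -0.389 to 0.13, Hspa1b -0.142 to 0.337 and Hsp90ab1 -0.0587 to 0.0771; at 4 Hz Hspa1a -0.223 to 0.357 and Smyd1 -0.0184 to 0.0615; at 10 Hz Hspa1a -0.603 to 0.106, Hspa1b -0.286 to 0.216, Hsp90ab1 -0.0662 to 0.039, Dnajb1 -0.238 to 0.165 and Dnaja1 -0.14 to 0.0355; at 10 Hz against 4 Hz Hspa1a -0.682 to 0.0502 and Hspa8 -0.0264 to 0.115.

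The replicate numbers did not pair the libraries: of 36 same-numbered pairs 3 had a correlation over 0.1 (-0.332 to 0.242), and 0 of 24 libraries correlated best with their own number. Under the replicate block the adjusted p of Dnajb1 at 4 Hz was 0.0827, and Hspd1 kept its calls.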
